A study of Pan troglodytes with 50 samples.

Results

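Broad H3K27ac domains are peaks 5000 bases or wider in the H3K27ac ChIP-seq peak lists of chimpanzee neural and glial progenitors, measured as end minus start. Members were chosen by their width in the deposited lists, so widths are given as a description with no test. The N2 list held 5333 such domains among 102693 peaks (5.19%) and the N3 list 4394 among 89425 (4.91%). The series has 50 samples, of which 42 are reporter libraries that are not used here. Both peak lists come from the induced pluripotent stem cell line Pt2A, which was derived from 1 chimpanzee and grown in N2B27 medium with bFGF and EGF. The labels name the N2 cells neural progenitors and the N3 cells glial progenitors in the source field, give the cell type of both as progenitors made from induced pluripotent stem cells, and add telencephalon as a description. Each stage had 2 H3K27ac libraries and 2 input libraries, and the deposited peak list of each stage is labelled as pooled. Each stage is therefore 1 list, and no difference between stages has a replicate check. The groups differ in stage only as far as the labels say.

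H3K27ac is the acetylation of lysine 27 on histone H3, a mark of active promoters and active enhancers. Most marked sites are narrow, and unusually wide stretches or clusters of the mark are known from genes that are highly active in a cell type, among them genes that set cell identity. In differentiating neural cells such stretches are known to be gained, lost or reshaped between stages. In a bulk culture, a change in the share of cells that carry the mark and a change in the mark per cell cannot be told apart. The sequencing depth behind the lists is unknown, because they give peaks and not reads. Positions are 1-based on the chimpanzee assembly of the files, whose version is not stated. No gene annotation of that assembly was used, so domains are named by position, and the marker genes of the 2 labelled cell types were not checked.

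The domains were few among the peaks but held a large part of the marked sequence. N2 domains covered 44.7 megabases, or 26.5% of all peak bases at that stage, and N3 domains covered 33.1 megabases, or 22.4%. The median domain was 6776 bases wide at N2 and 6554 bases at N3, against medians over all peaks of 894 and 988 bases. The middle 50% of domains ran from 5670 to 9122 bases at N2 and from 5604 to 8339 at N3, and the widest reached 84086 and 47657 bases. N2 thus had the longer upper end: 1066 peaks of 10000 bases or more against 620, and 170 of 20000 or more against 34. At 2500 bases or more the lists were closer, with 19858 and 18398 peaks. Nothing separates the domains from the other peaks at the threshold. The 3 domains just inside it at N2 measured 5001, 5000 and 5000 bases and the 3 peaks just outside all 4999 bases, and at N3 all 3 inside measured 5000 and all 3 outside 4999.

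**Figure D1:**
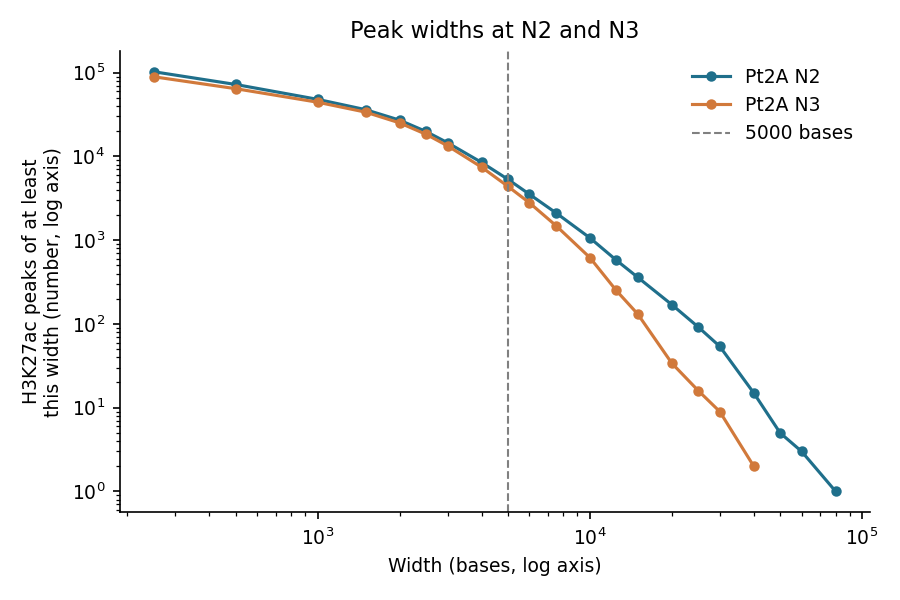
Number of H3K27ac peaks of at least a given width in the pooled Pt2A N2 and N3 lists, on log axes, with the 5000-base threshold dashed. The N2 line lies above the N3 line at every width drawn, with 5333 against 4394 peaks at 5000 bases and 170 against 34 at 20000 bases.

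Domains also had high signal values in their lists. The signal value is the authors' own value for each peak, on a scale that the files do not state, and is used here only to describe and order the peaks of a list. Where values of both lists stand side by side, no change is read from them. It had a median of 19.6 in N2 domains and 23.4 in N3 domains, against 3.3 and 3.5 over all peaks of these lists. Of the N2 domains, 58.6% lay in the top 10% of the N2 list by signal, and of the N3 domains 57.4% in the top 10% of the N3 list. Only 2 N2 domains and 0 N3 domains lay in the lower 50%. Among the 100 peaks of highest −log10 q, 57 were domains at N2 and 52 at N3. The peak of highest signal value was a domain at both stages, with 8535 bases at N2 and 5890 at N3. The peak of highest −log10 q was a domain at neither, with 4366 and 3905 bases. Within the domains, width and signal correlated with a Spearman rho of 0.31 at N2 (n = 5333 regions) and 0.30 at N3 (n = 4394), against 0.82 and 0.85 over all peaks of each list. The domains span only the upper end of the widths, which by itself lowers rho, and the regions of a list share their libraries, so these values are a description. The summit lay in the middle 20% of the domain in 33.3% of N2 and 36.5% of N3 domains, and in the outer 20% at either end in 12.9% and 9.44%. Among narrower peaks these shares were 38.0% and 39.5% for the middle, and 11.6% and 10.5% for the outer parts.

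The state of each domain at the other stage was then read. A domain was called kept where it met, by at least 1 base, a peak of 5000 bases or more. It was called split where it met only narrower peaks and at least 2 of them, narrowed where it met 1 narrower peak, and lost where it met no peak. The same names are used in both directions and state no order in time. Of 5333 N2 domains, 2142 (40.2%) were kept at N3, 1527 (28.6%) split, 1053 (19.7%) narrowed and 611 (11.5%) lost. Of 4394 N3 domains, 2191 (49.9%) were kept at N2, 1245 (28.3%) split, 754 (17.2%) narrowed and 204 (4.64%) lost. Over all N2 peaks, 6.9% met a peak of 5000 bases or more at N3 and 50.8% met any peak. Over all N3 peaks these shares at N2 were 10.1% and 59%. Since each direction starts from regions picked for their width at 1 stage, part of the narrowing at the other is set by the choice. Domains of both stages fell into 7497 loci, of which 2103 (28.1%) held a domain at both stages, 3191 (42.6%) at N2 only and 2203 (29.4%) at N3 only.

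**Figure D2:**
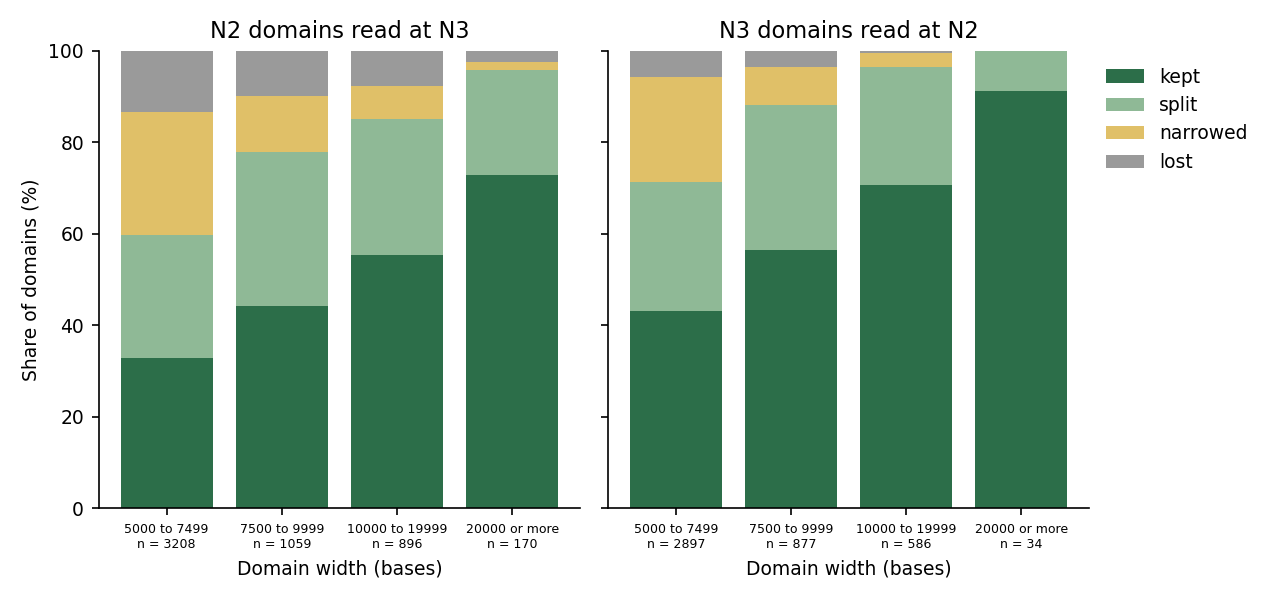
Share of domains kept, split, narrowed or lost at the other stage, by domain width, for N2 domains read at N3 and N3 domains read at N2. The kept share is higher in each wider class, from 32.9% to 72.9% for N2 domains and from 43.2% to 91.2% for N3 domains.

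The kept share was higher in wider domains in both directions. Of 3208 N2 domains of 5000 to 7499 bases 32.9% were kept and 13.5% lost, whereas of 170 domains of 20000 bases or more 72.9% were kept and 2.35% lost. Of 2897 N3 domains in the narrowest class 43.2% were kept and 5.83% lost, and of the 34 in the widest class 91.2% were kept and 0 lost. A wide region also has more room to meet a peak, so the summit, a single base, was followed as well. The summit lay inside a peak of the other stage for 4423 N2 domains (82.9%) and 4058 N3 domains (92.4%). The same was true of 46.7% of all N2 peaks and 54.7% of all N3 peaks. Peaks of 2500 to 4999 bases lay between, at 74.5% and 84.4%, so the share differed by degrees along the widths with no step at 5000 bases.

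**Figure D3:**
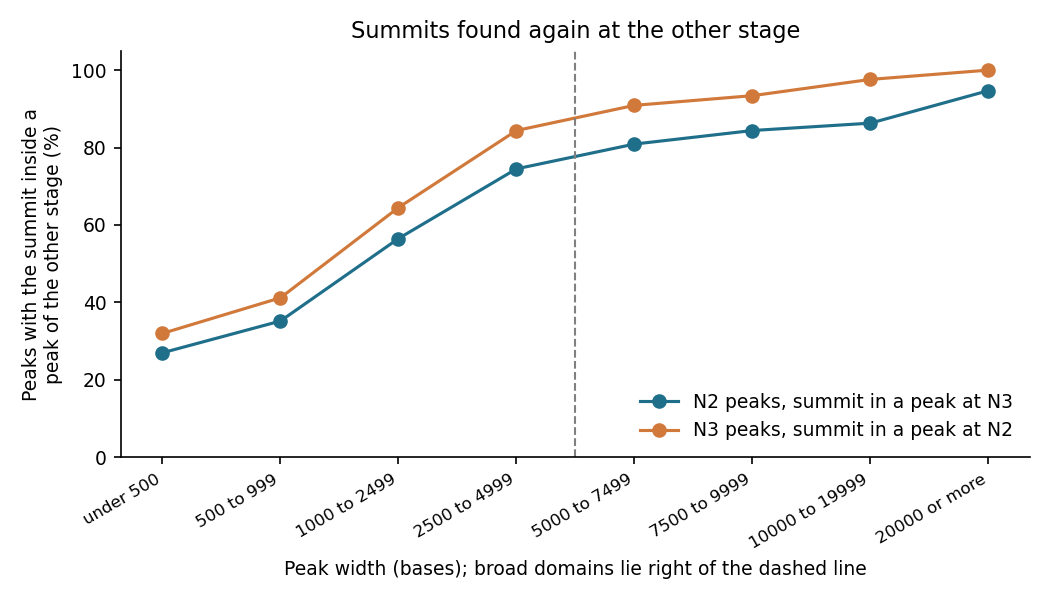
Share of H3K27ac peaks whose summit lies inside a peak of the other stage, by peak width, for N2 peaks (read at N3) and N3 peaks (read at N2). The share is larger in each wider class, reaching 94.7% of N2 and 100.0% of N3 peaks at 20000 bases or more, against 35.2% and 41.2% at 500 to 999 bases.

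Signal values went with the state at the other stage too. Of the 1333 N2 domains of highest signal (27.2 to 64.7), 55.0% were kept and 3.68% lost, and of the 1334 of lowest signal (2.5 to 13.0), 360 were kept and 257 (19.3%) lost. Of the 1099 N3 domains of highest signal (32.7 to 74.9), 68.2% were kept and 0.364% lost, against 34.8% and 11.6% of the 1099 of lowest signal (3.6 to 15.9). From lowest to highest signal the split share went from 32.2% to 22.8% at N2 and from 35.4% to 16.4% at N3. The narrowed share went from 21.5% to 18.5% at N2 and from 18.2% to 15.1% at N3. The domains of higher signal were also wider, with median widths of 7870 against 5950 bases at N2 and 7402 against 5913 at N3. The parts of signal and width in these shares were not tested separately.

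Kept domains mostly kept their ground. Peaks at N3 covered a median of 94.4% of a kept N2 domain, and peaks at N2 a median of 97.9% of a kept N3 domain. At least 90% of the domain was covered in 1347 kept N2 domains (62.9%) and 1682 kept N3 domains (76.8%). Still, 783 kept N2 domains (36.6%) and 557 kept N3 domains (25.4%) met 2 or more peaks, so part of a kept domain could be broken up. Of the kept N2 domains 79 met 2 or 3 domains at N3, and 39 kept N3 domains met 2 at N2.

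In 906 cases a single N2 domain and a single N3 domain met each other and no other peak. Domains that met only narrower peaks, several peaks or none are left out, so part of the closeness in width is set by this choice. Their widths were close: the N3 over N2 ratio had a median of 0.99 (middle 50% from 0.90 to 1.06), 496 were wider at N2 and 408 at N3, and 689 (76.0%) differed by no more than 1.2-fold. The extremes ran from 0.28 to 2.33. Edges moved by a median of 292 bases on the left and 297 on the right. Summits lay a median of 104 bases apart and within 500 bases in 71.4% of pairs, but over 2000 bases apart in 92 pairs (10.2%). Over all 34377 such pairs of any width, the median ratio was also 0.99. Their summits lay a median of 102 bases apart, and 86.3% lay within 500 bases. Narrow peaks leave less room for summits to lie apart, so the 2 shares within 500 bases are not a like comparison.

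**Figure D4:**
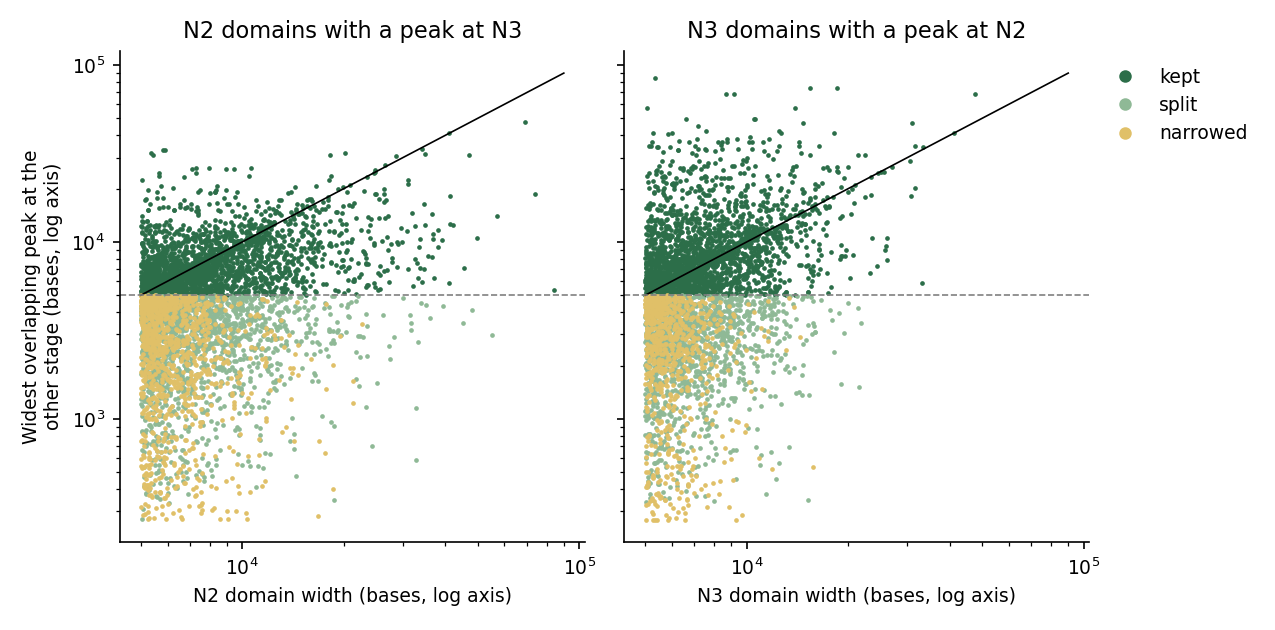
Width of each domain against the widest overlapping peak of the other stage, both in bases on log axes, for N2 domains (left) and N3 domains (right), with equal width as a solid line and 5000 bases dashed. Kept domains (above the dashed line) lie on both sides of the solid line, with the widest peak of the other stage narrower than the domain for 56.5% of kept N2 and 40.8% of kept N3 domains, and split and narrowed domains lie below the dashed line.

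The widest kept domains show the range from intact to fragmented. The N2 domain of 68844 bases at chr17:57158746-57227589 was the third widest at N2, and the widest N3 domain, 47657 bases at chr17:57179951-57227607, lay inside it but for 18 bases at its right end. N3 peaks covered 97.5% of the N2 domain, which met 5 of them. At chr1:184179207-184220394 the N3 domain of 41188 bases met a single N2 peak of 41077 bases, and the edges differed by 123 and 12 bases. The N3 domain of 33331 bases at chr17:77048918-77082248 lay wholly within an N2 peak of 34215 bases, and that of 27072 bases at chr2A:20930619-20957690 met an N2 peak of 26601 bases. All 10 of the widest N3 domains were kept at N2, though not all of them whole. That of 33098 bases at chr3:144503507-144536604 met 10 N2 peaks, the widest of 5880 bases, and N2 peaks covered 64.0% of it.

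The widest N2 domains also ranged from nearly whole to fragmented. The widest of all, 84086 bases at chr15:49543602-49627687, counted as kept because 1 of the 35 N3 peaks it met was 5353 bases wide, and N3 peaks covered 55.6% of it. The second, 73916 bases at chr22:22843959-22917874, met 16 N3 peaks, the widest of 18586 bases. The domain of 47174 bases at chr6:26546348-26593521 was 97.8% covered by 3 N3 peaks, of which the widest had 30876 bases. Of the 10 widest N2 domains, 7 were kept and 3 split. The widest split domain, 54924 bases at chr10:112353490-112408413, met 6 N3 peaks of at most 2972 bases that covered 19.1% of it. Its signal value was 33.9 in the N2 list, and that of its widest N3 piece was 6.6 in the N3 list. At chr8:7618121-7666298 a domain of 48178 bases met 14 N3 peaks of at most 4125 bases. Here the widest N3 piece had a signal value of 37.7 in the N3 list, and the domain 22.6 in the N2 list.

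Split domains were most often cut into few pieces. Of the 1527 split N2 domains 868 (56.8%) met 2 N3 peaks, 368 met 3 and 291 (19.1%) 4 or more, up to 15. Of the 1245 split N3 domains 700 (56.2%) met 2 N2 peaks, 336 met 3 and 209 (16.8%) 4 or more, up to 8. Coverage had a median of 56.9% for split N2 and 58.2% for split N3 domains, and the widest piece a median of 2978 and 2806 bases. The gaps were mostly short: the widest gap between pieces had a median of 768 bases at N3 and 626 at N2, and was 500 bases or less in 36.6% and 42.9% of split domains. In 70.0% and 73.6% the weakest piece had a −log10 q under 5. With peaks of −log10 q of at least 5 only, split domains numbered 855 at N3 and 629 at N2. With peaks of the other stage joined across gaps of up to 500 bases they numbered 853 and 635, and the kept domains then numbered 2529 and 2521. The count of split domains thus rests in part on weak pieces and short gaps. The kept count could hardly fall at these settings, so it gives no comparison. Peaks of 5000 bases or wider had a −log10 q of at least 4.44 at N2 and 10.4 at N3, and joining can only widen peaks.

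Large splits of N3 domains were also seen. At chr2B:92584982-92606436 a domain of 21455 bases, with a signal value of 48.4 in the N3 list, met 6 N2 peaks that covered 38.3% of it. The widest of them had 4223 bases and a signal value of 6.5 in the N2 list. At chr19:59505935-59527416 a domain of 21482 bases met 4 N2 peaks that covered 18.1%, none wider than 1523 bases. The widest split N3 domain, 21776 bases at chr1:39285467-39307242, was 62.4% covered by 7 N2 peaks.

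Narrowed domains ranged from near the threshold to a remnant. The single N3 peak under a narrowed N2 domain had a median of 2698 bases (middle 50% from 1408 to 4132), and the single N2 peak under a narrowed N3 domain a median of 2804 bases (1521 to 4008). In 283 (26.9%) and 191 (25.3%) cases that peak was 4000 bases or wider, so it missed the threshold by at most 1000 bases. In 177 (16.8%) and 143 (19.0%) it was narrower than 1000 bases. The widest narrowed N2 domain, 22730 bases at chr14:56958222-56980951, met 1 N3 peak of 3442 bases with a signal value of 29.6 in the N3 list, and had itself 31.3 in the N2 list. The domain of 21359 bases at chr18:26286368-26307726 met 1 N3 peak of 1227 bases with a signal value of 4.8, away from its summit. At chr10:131973812-131989534 an N3 domain of 15723 bases, with a signal value of 38.8, met 1 N2 peak of 536 bases with a signal value of 2.1. At chr4:98270048-98283150 an N3 domain of 13103 bases with a signal value of 52.3 met an N2 peak of 2463 bases with a signal value of 4.3.

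Lost domains were lower than the rest but not marginal. Their median signal value was 14.6 in the N2 list and 13.9 in the N3 list, against 22.7 and 27.1 for kept domains of the same lists. Single lost domains reached 47.7 and 52.4. The nearest peak of the other stage lay a median of 24703 bases from a lost N2 domain and 20990 bases from a lost N3 domain. It lay over 10000 bases away for 429 (70.2%) and 143 (70.1%) of them, and within 1000 bases for 13 and 4. Some lost domains lay in runs within the same stretch without a peak of the other stage, so their distances are not separate observations. In such a run, chr1:2190456-2201804 and chr1:2437705-2443941 lay 314058 and 256423 bases from the nearest N3 peak, with further lost N2 domains between them. Of the lost N2 domains 74 were 10000 bases or wider, and of the lost N3 domains 3. The widest were found at N2: 30227 bases at chr14:20466190-20496416, with the nearest N3 peak 104386 bases away, 27320 bases at chr2A:45943458-45970777, with 166855 bases to the nearest N3 peak, and 25021 bases at chr9:47195164-47220184, with 56211 bases. At chr18:63245430-63256850 an N3 domain of 11421 bases with a signal value of 39.0 had no N2 peak within 140867 bases. At chr2A:63490679-63502367 the widest lost N3 domain, of 11689 bases, had a signal value of 15.8.

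The count of lost domains depends on which weak peaks of the other stage are admitted. With −log10 q of at least 10 it was 1040 for N2 domains (19.5%) and 637 for N3 domains (14.5%), against 611 and 204 with all peaks, while the kept counts were 2141 and 2190. The lost share was larger for N2 than for N3 domains at both settings, in lists that differ in length.

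Domains were present on all 25 chromosomes. The share of peaks that were domains ran, leaving out Y, from 4.16% (X) to 6.40% (chromosome 17) at N2, and from 3.94% (chromosome 3) to 5.94% (chromosome 17) at N3. Chromosome 17 held 4.50% of N2 peaks and 5.55% of N2 domains, and 3.92% of N3 peaks and 4.73% of N3 domains. Chromosome 10 was second at N2 by share of peaks (6.17%) and first by share of peak bases in domains (32.2%, against 31.7% on chromosome 17). At N3 its shares were 5.07% and 24.3%. Chromosome Y had 3 domains of 70 peaks at N2 and 6 of 125 at N3.

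More domains were listed at N2 than at N3 on 20 chromosomes and fewer on 5, with 1.21 times as many in all, and 1.15 times as many peaks. The N2 over N3 ratio of domains was highest on chromosome 14 (179 against 111, a ratio of 1.61), where the ratio of all peaks was 1.41. Chromosome 3 had 320 against 220 domains (1.45) at a ratio of peaks of 1.18. On chromosome X the order was the other way, with 115 domains at N2 and 135 at N3 (0.85), although peaks were more numerous at N2 (2764 against 2535). Chromosomes 12 (228 against 247), 2B (207 against 217) and 7 (263 against 265) also had more domains at N3. X held 2 domains of 20000 bases or more at N2 and 0 at N3. The kept share of N2 domains was lowest on chromosomes 14 and 21 (27.9% each) and highest on X (50.4%), and that of N3 domains ran from 34.7% on chromosome 21 to 62.7% on chromosome 19, again leaving out Y.

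**Figure D5:**
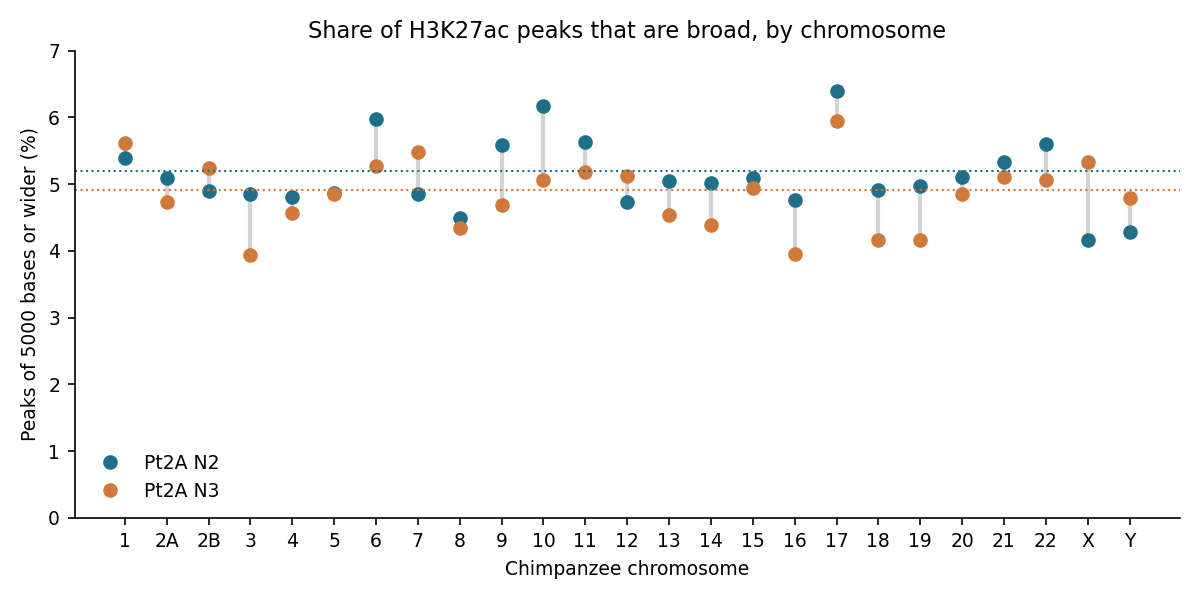
Percent of the H3K27ac peaks on each chimpanzee chromosome that are 5000 bases or wider, for Pt2A N2 and N3, with dotted lines at the shares over all chromosomes (5.19% and 4.91%). Chromosome 17 is highest at both stages, and X lies below the line at N2 (4.16%) and above it at N3 (5.33%).

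Many domains had a neighbour. The nearest other domain lay a median of 30249 bases away at N2 and 52244 at N3, and 1856 N2 domains (34.8%) and 1158 N3 domains (26.4%) lay within 12.5 kb of another. Joined at that distance, they formed 749 clusters of 2 or more at N2 and 508 at N3, of which 221 and 107 held 3 or more. Another peak of any width lay within 1000 bases of 67.6% of N2 and 62.5% of N3 domains, against 49.2% and 45.0% of narrower peaks. With joins at 5000 bases the clusters held 1118 N2 and 660 N3 domains. The N2 list holds more domains, which by itself gives more neighbours, and no set of other peaks of equal number was compared.

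Clusters differed in what the other stage showed. At chr10:80346951-80478785, 8 N2 domains of 101887 bases in sum faced 6 N3 domains, and N3 peaks covered 78.0% of the span. At chr11:48296676-48404293, 8 N2 domains of 53667 bases in sum faced 0 N3 domains, and 20 N3 peaks covered 16.6% of the span. At chr9:4095528-4191573, 8 N2 domains faced 2 N3 domains and N3 peaks covered 33.2%. The N3 cluster of 8 domains at chr17:39837488-39941189 covered 49.2% of its span with domains, and faced 6 N2 domains with N2 peaks over 88.9% of it. The N3 domains of 85426 bases in 4 parts at chr17:57138755-57227607 include the widest N3 domain and faced 2 N2 domains over a span 99.4% covered at N2.

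Of 2830 windows of 1000000 bases that held a peak, 1640 held an N2 domain and 1620 an N3 domain, and 1281 held both. With so many windows holding a domain at each stage, many would hold both in any case. Windows with 10 or more domains numbered 51 at N2 and 16 at N3. The windows named here were chosen after their values were seen. The window with most N2 domains, chr10:80000001-81000000, had 19 at N2 and 8 at N3, among 113 and 78 peaks. The window with most N3 domains, chr10:14000001-15000000, had 14 at N3 and 16 at N2, among 148 and 113 peaks. In chr11:48000001-49000000 there were 13 N2 and 0 N3 domains among 83 and 52 peaks. In chr21:19000001-20000000 there were 12 and 0 among 93 and 42 peaks, and 6 of those 12 were lost outright. The other way, chr21:29000001-30000000 had 3 N2 and 12 N3 domains with 130 peaks at each stage, chr2A:16000001-17000000 had 0 and 8 among 52 and 103 peaks, and chr22:20000001-21000000 had 1 and 9 among 38 and 119 peaks. Chromosome 21 thus held both a window with domains at N2 alone and the window with the largest surplus at N3.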

How the data were processed

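The authors deposited 1 list of H3K27ac peaks per stage, with replicates pooled per the file names and 1 summit per peak. The deposited values used are a start, an end and a summit in bases, a signal value whose scale is not stated, and a −log10 q, which is 0.759 at its lowest in the N2 list and 0.702 in the N3 list, so weak peaks were admitted. The sources used here name no peak caller and no chimpanzee assembly. The submitters' processing notes name GRCh37, but the lists use chromosome names 2A and 2B. The gene table at hand is of another assembly (2 of the chromosome names are missing from it and on 7 chromosomes the last peak lies 1000000 bases or more beyond its last gene), so no gene was placed.

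Domains were classed with Python 3.11.15, numpy 2.4.6, pandas 2.3.3 and scipy 1.17.1 by overlap of at least 1 base. The classing was tested on simulated peaks of known state. Named are the 10 widest domains per list and the 5 widest per state, of which those described were taken, and the largest clusters. Members and lists were chosen with earlier results of these data known. No test was run, since each stage is 1 pooled list.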

Additional observations from a re-analysis of the deposited data

How the results depend on the processing

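No paired analysis was possible because the replicates of each stage were pooled into 1 peak list, and for the same reason no replicate could be left out. Of 94 values under other settings, 62 stayed within 1.5 times the first value. Some of these could not move or hardly could, so the tally is no measure of stability. Joining peaks of the other stage, or asking more of a kept domain, cannot change the lost counts. Kept counts could hardly fall at the −log10 q settings. Overlap of 10% of either region or 50% of the narrower moved none past that, nor did cutting the N2 list to the length of the N3 list (chosen after seeing the data). That cut left the states of N2 domains unchanged by construction, since these are read in the uncut N3 list. For N3 domains it gave 1098 split, 867 narrowed and 238 lost. Asking a kept domain for 80% of its width also stayed within it, but left 1717 N2 domains kept and 1996 split, so that split outnumbered kept, and 1969 and 1502 N3 domains. With −log10 q of at least 5, split domains numbered 855 (N2 domains) and 629 (N3 domains), and narrowed and lost N3 domains 1150 and 424. With at least 10, split domains numbered 487 and 319, narrowed 1661 and 1248, and lost 1040 and 637. With the other stage joined within 500 bases split domains numbered 853 and 635, and within 1000 bases 511 and 345. Joining each stage's own list within 500 bases gave 6893 N2 and 5772 N3 domains, against 5333 and 4394 unjoined, so the domain counts also rest on short gaps. At a threshold of 4000 bases there were 8487 N2 and 7452 N3 domains, with 3837 and 3938 kept, 1777 and 1416 narrowed, and 1152 and 465 lost. At 6000 bases there were 3532 and 2792, with 1269 and 1301 kept, 630 and 403 narrowed, and 368 and 98 lost. These counts follow the number of domains. From 4000 to 6000 bases the kept share went from 45.2% to 35.9% for N2 domains and from 52.8% to 46.6% for N3 domains. The split share went from 20.3% to 35.8% and from 21.9% to 35.5%, and the lost share from 13.6% to 10.4% and from 6.24% to 3.51%. Joined within 5000 bases, clusters held 1118 N2 and 660 N3 domains. By construction these settings differ in the peaks, gaps or widths they admit. Depth could not be judged from peak lists.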
